A study of Sus scrofa with 16 samples.

Results

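The genes described here were 7 genes of lymphocytes and other white blood cells, RHOH, SAMSN1, PTPRC, CD3E, CD2, LCK and CORO1A, measured in the pig pituitary. They were 7 of the 25880 genes in the count table, matched by Ensembl identifier and symbol. RHOH and SAMSN1 were chosen by their count levels in low against high feed conversion pigs, which were already known, and the other 5, called the lymphocyte genes below, were set beside them to see whether RHOH and SAMSN1 followed them from gland to gland. The differences between feed conversion groups are therefore given for all 7 genes as a description, without a test.

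Pituitary RNA came from 16 female pigs of the Pulawska breed, 8 with a low feed conversion ratio (LFC, replicates 1 to 8) and 8 with a high feed conversion ratio (HFC, replicates 9 to 16). HFC pigs needed more feed than LFC pigs for the same gain in weight. No pig was treated, and the labels give every pig an age of 3 months, whereas the methods of the study describe slaughter at a higher age. According to those methods the pigs were unrelated, came from different farms, were kept at one test station, and whole glands, with both lobes, were homogenised, so each library is 1 pig.

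Lymphocytes detect antigen through receptors that signal by phosphorylation. In T cells the CD3 chains, CD3E among them, pass the signal inward after the kinase LCK has phosphorylated them, and the phosphatase PTPRC (CD45) keeps LCK ready to act. CD2 is an adhesion receptor of T and natural killer cells, and CORO1A is an actin-binding protein that supports the survival and movement of T cells. RHOH is an atypical small GTPase of blood cells that helps bring the kinase ZAP70 to the T cell receptor, and SAMSN1 is an adaptor of blood cells that restrains B cell activation. The pituitary is an endocrine gland that also holds resident macrophages, and its vessels bring blood cells into any whole-gland sample.

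The tissue label was checked against hormone genes: 7 of 8 listed hormone and endocrine genes were in the table, and their summed level was 54560 to 167200 CPM (each count relative to the scaled total of its library) in LFC and 14220 to 172800 CPM in HFC, lowest in HFC 16. Totals ranged from 13.998 to 23.06 M counts in LFC (median 18.8 M) and from 10.97 to 19.31 M in HFC (median 15.31 M). In a principal component analysis of log2 CPM, the first component held 41.8% of the variance and the second 18.6%. LFC 5, HFC 13 and HFC 14 stood apart on the first component, at 126.01, 75.07 and 56.59 against at most 11.29 in the other 13 libraries. HFC 16 stood apart on the second at -86.74, followed by HFC 14 at -47.53 and HFC 11 at -41.25, with the others at -3.7 or above. Results are therefore also given without LFC 5, HFC 13, HFC 14 and HFC 16.

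On the pig assembly Sscrofa11.1 the 7 genes lie on 7 different chromosomes, and all are protein-coding in the annotation deposited by the authors. RHOH (ENSSSCG00000008794) spans chr8:31323264-31372065 and SAMSN1 (ENSSSCG00000038062) spans chr13:179427521-179478876. PTPRC (ENSSSCG00000010908) lies at chr10:21483275-21602035, CD3E (ENSSSCG00000040140) at chr9:45619381-45635379 and CD2 (ENSSSCG00000006736) at chr4:103962527-103977913. LCK (ENSSSCG00000003608) lies at chr6:88719881-88749768 and CORO1A (ENSSSCG00000038055) at chr3:18336808-18347016. The library kit keeps no strand, so reads of overlapping genes cannot be told apart. In the RefSeq annotation, SAMSN1 lies wholly within a long non-coding RNA gene, LOC102161811. There CORO1A shares 1326 bp with BOLA2B and 516 bp with SLX1A, and LCK shares 158 bp with HDAC1. The counts of SAMSN1, CORO1A and LCK are uncertain to that extent.

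Levels are in CPM after TMM scaling of the library totals, and were not compared between genes because transcript length was not taken into account. The log2 fold changes, HFC over LFC, come from an edgeR quasi-likelihood fit of all 14319 genes that passed a filter on low counts, as all 7 of these genes did. Each fold change is followed by its standard error (SE). In that fit 0 genes of 14319 (0%) were called at an adjusted p of at most 0.05 and a fold of at least 1.3, and the smallest adjusted p was 0.612, so no gene of the 7 was called. Before adjustment, 834 genes (5.82%) had a p under 0.05, 615 of them higher in HFC (4.29%) and 219 lower (1.53%), and 2 of the 7, RHOH and SAMSN1, were among the higher ones. DESeq2 called 20 of 19572 genes (0.102%), RHOH and SAMSN1 among them. The log2 fold change was above 0 for 7 of the 7, and for 6928 of all genes tested (48.4%). Because these values helped to choose the 2 genes, nothing is read from these counts.

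RHOH stood higher in HFC glands. Its level in LFC was 1.39 CPM at the lowest, 1.84 at the median and 2.55 at the highest, and in HFC it was 2.26, 3.62 and 10.1 CPM. The groups overlapped, but 7 of 8 HFC libraries lay above every LFC library and only HFC 15 did not. The mean was 1.89 ± 0.366 CPM in LFC and 4.49 ± 2.58 in HFC (SD, n = 8 each), a 2.36-fold difference and a log2 fold change of 1.24 (SE 0.29). The spread within HFC came mainly from 1 gland: HFC 16 held 10.1 CPM, and the next highest, HFC 11, held 5.66 CPM. Without HFC 16 the log2 fold change was 0.95, and without all 4 libraries that stood apart it was 0.79. RHOH rested on 19 to 58 counts per LFC library and 36 to 168 per HFC library. In LFC its coefficient of variation between pigs, 19.3%, was close to the 17.7% that counting error alone gives, whereas in HFC it was 57.5% against 13.8%.

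SAMSN1 was also higher in HFC, and more evenly so. Its lowest, median and highest levels were 0.945, 1.16 and 2.15 CPM in LFC and 1.89, 2.54 and 3.43 CPM in HFC. Again 7 of 8 HFC libraries were above every LFC library, with HFC 15 the exception, and LFC 1 was the highest of its group. Means were 1.36 ± 0.466 CPM in LFC and 2.65 ± 0.501 in HFC (SD, n = 8 each), a 1.94-fold difference and a log2 fold change of 0.96 (SE 0.22). Leaving out any 1 library kept the log2 fold change between 0.89 and 1.08, and without the 4 libraries that stood apart it was 0.88. The counts were low, 12 to 42 in LFC and 25 to 57 in HFC libraries, and in HFC the variation between pigs of 18.9% was little above the 16.5% of counting error. Because these are whole glands, more cells that carry a transcript and more transcript per cell cannot be told apart, for SAMSN1 or for any of the 7 genes.

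The 5 lymphocyte genes overlapped widely between the groups. CD2 differed most among them, at 1.48, 1.91 and 3.24 CPM (lowest, median, highest) in LFC and 1.51, 2.99 and 5.18 CPM in HFC. HFC 11, 13, 14 and 16 were above every LFC library and the other 4 were not, for a log2 fold change of 0.54 (SE 0.29). CD3E was at 1.02, 1.33 and 2.91 CPM in LFC and 0.962, 1.89 and 4.61 CPM in HFC, and its log2 fold change was 0.42 (SE 0.33). Only HFC 11 and HFC 14 exceeded the highest LFC library, LFC 7. LCK followed the same libraries, with 0.97, 1.36 and 3.04 CPM in LFC and 0.818, 1.63 and 5.43 CPM in HFC, the highest being LFC 7 and HFC 14. Its log2 fold change of 0.41 (SE 0.38) was 0.07 without HFC 14 and 0.62 without LFC 7, and that of CD3E was 0.17 and 0.61 without the same libraries. Without the 4 libraries that stood apart the log2 fold changes of CD2, CD3E and LCK were lower, at 0.32, 0.22 and 0.21 with SEs of 0.31, 0.35 and 0.38, and that of CORO1A was 0.03.

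PTPRC and CORO1A, the pair of lymphocyte genes with the most counts, differed little between the groups. PTPRC was at 4.09, 8.85 and 15.5 CPM in LFC and 5.53, 9.43 and 16.3 CPM in HFC, with a log2 fold change of 0.16 (SE 0.26). It was lowest in LFC 5 and highest in LFC 7 and HFC 11, and its fold change was 0.02 without HFC 11, 0.31 without LFC 7 and -0.07 without the 4 libraries that stood apart. CORO1A was at 11.03, 13.9 and 42.4 CPM in LFC and 10.6, 15.8 and 28.3 CPM in HFC, with a log2 fold change of 0.01 (SE 0.28). Its highest library was LFC 5, where PTPRC was lowest, so the libraries did not line up in the same order for every lymphocyte gene. The CORO1A fold change was 0.32 without LFC 5 and -0.11 without HFC 13.

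**Figure D1:**
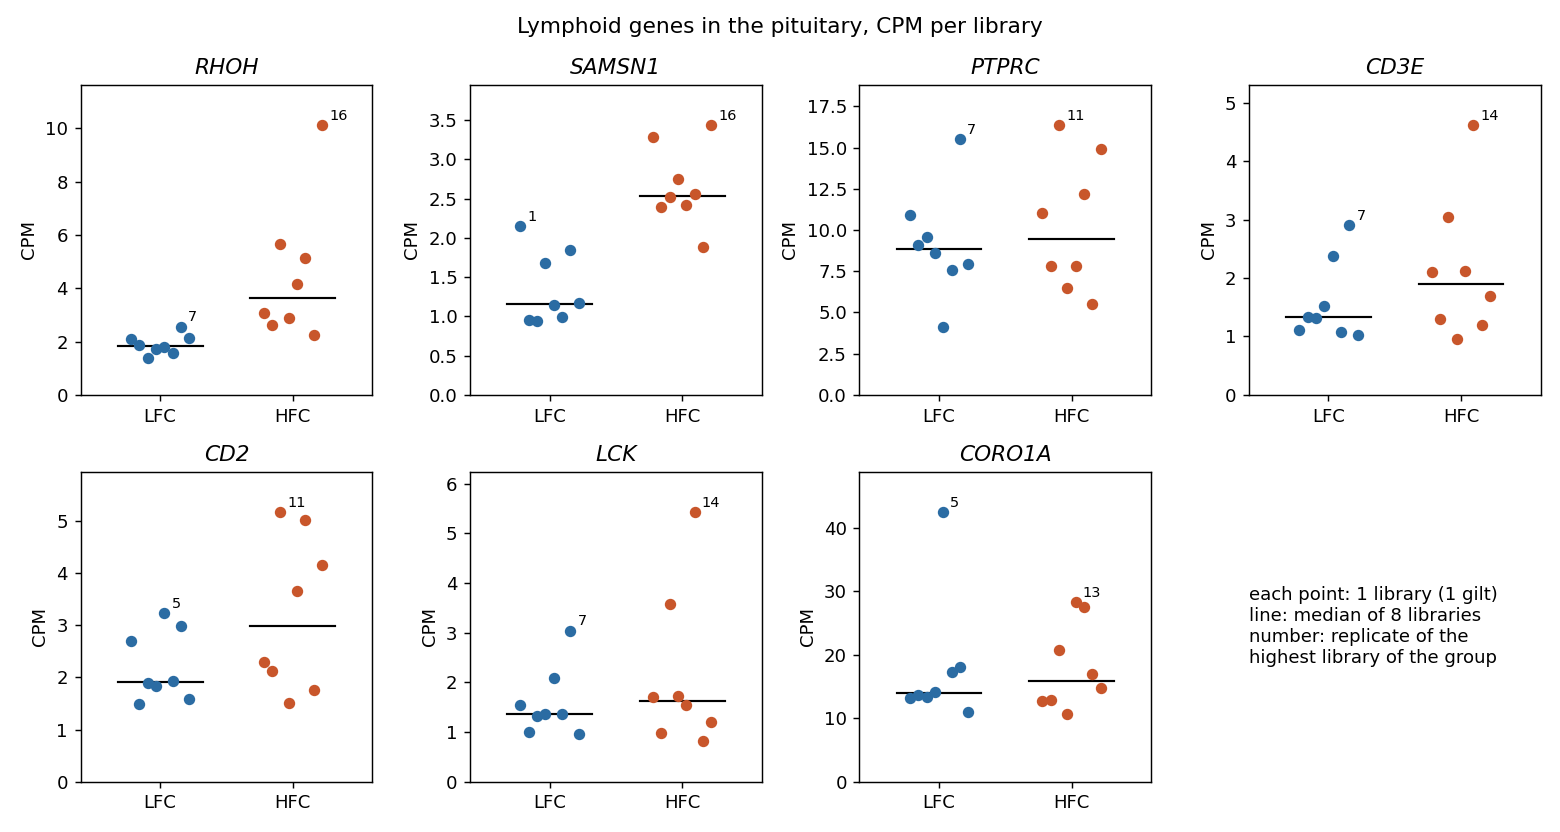
Level of each gene in CPM (vertical axis, linear from 0, 1 panel per gene) in the 8 LFC and 8 HFC libraries, 1 point per library, with a line at the group median and the replicate number of the highest library of each group. For RHOH and SAMSN1, 7 of 8 HFC points lie above every LFC point, whereas the groups overlap widely for the 5 lymphocyte genes, and the single high RHOH point at 10.1 CPM is HFC 16.

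**Figure D2:**
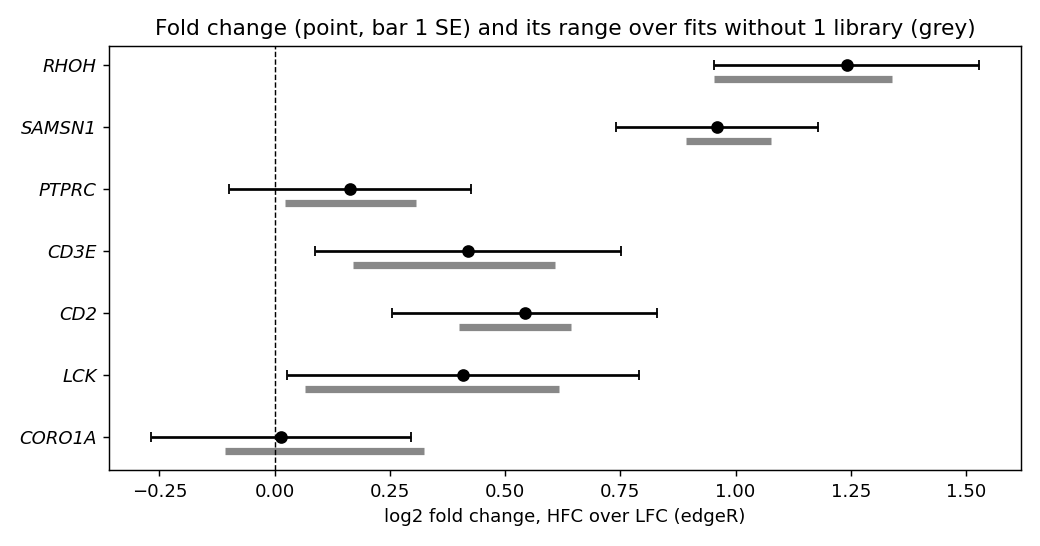
The log2 fold change of each gene, HFC over LFC (horizontal axis), as a point with a bar of 1 SE, with the range over fits that left out 1 library in grey. RHOH at 1.24 and SAMSN1 at 0.96 lie farthest from 0, and CORO1A at 0.01 lies nearest.

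The fold changes of RHOH and SAMSN1 were also fitted with the level of other white blood cell genes as a covariate. With the mean level of the 5 lymphocyte genes in the model the log2 fold change was 1.03 (SE 0.27) for RHOH and 0.91 (SE 0.22) for SAMSN1. With the mean level of 18 microglia and macrophage genes it was 0.75 (SE 0.29) and 0.81 (SE 0.24). Without a covariate the log2 fold changes were 1.24 for RHOH and 0.96 for SAMSN1, so RHOH fell most with the macrophage genes in the model. These fits are a description, because the same contrast chose both genes. The part of cell makeup in the 2 fold changes was not tested. On the log2 scale, the level of RHOH minus the mean level of the lymphocyte genes lay between -1.39 and -0.33 in LFC libraries. In HFC it was 1.12 in HFC 16 and between -0.71 and 0.02 in the other 7, so HFC 16 carried much more RHOH for its lymphocyte genes than any other gland.

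Whether RHOH and SAMSN1 followed the lymphocyte genes from pig to pig was tested after each group's mean log2 CPM had been taken out, so that the LFC against HFC difference did not enter. The 11 pairs were tested over 16 libraries by a two-sided permutation test within groups, with 100000 resamples and Benjamini-Hochberg adjustment over the 11 pairs. RHOH rose and fell with PTPRC and with CD2, and these were the 2 pairs of 11 with an adjusted p of at most 0.05. Many other genes followed RHOH as closely. Of 14318 genes, 1.62% had a rho with RHOH at least as high as that of PTPRC, and 1.33% at least as high as that of CD2. For RHOH with PTPRC, Spearman's rho was 0.73 (permutation p = 0.00663, adjusted p = 0.0365) and Pearson's r was 0.67 (permutation p = 0.00473, adjusted p = 0.0388). For RHOH with CD2, rho was 0.74 (permutation p = 0.00662, adjusted p = 0.0365) and r was 0.72 (permutation p = 0.00706, adjusted p = 0.0388).

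Libraries above their own group's mean for both RHOH and PTPRC were LFC 1, LFC 2, LFC 7, HFC 11, HFC 14 and HFC 16. Within HFC alone rho was 0.93 for RHOH with PTPRC and 0.86 for RHOH with CD2, and within LFC alone it was 0.38 and 0.10 (n = 8 each), a difference that was not tested. Without LFC 5 and HFC 11, the libraries farthest from the median of PTPRC, r of RHOH with PTPRC was 0.77, and without HFC 11 and HFC 14, the farthest for CD2, r of RHOH with CD2 was 0.68. The direction held in each fit that left out 1 library, with rho between 0.64 and 0.78 for PTPRC and between 0.66 and 0.84 for CD2. The adjusted p did not. For RHOH with PTPRC it exceeded 0.05 without any 1 of LFC 1, LFC 7, HFC 10, HFC 11, HFC 13, HFC 14, HFC 15 or HFC 16, and for RHOH with CD2 without any of these or HFC 9, reaching 0.0997 by the permutation test in both cases. Without the 4 libraries that stood apart neither pair passed, with rho 0.66 for PTPRC and 0.50 for CD2 (n = 12, adjusted permutation p = 0.158 and 0.193). Both pairs were also lost when values were not centred on the group means (rho 0.45 and 0.58) and when the first and second principal components were regressed out (rho 0.13 and 0.26). RHOH with CD2 was lost with total count scaling as well (rho 0.64, adjusted permutation p = 0.0563), where RHOH with PTPRC kept a rho of 0.78.

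The other 3 pairs of RHOH had a lower rho, a difference between pairs that was not tested. Its rho with CD3E, the T cell receptor chain, was 0.59 (permutation p = 0.0408, adjusted p = 0.0748) and r was 0.45 (permutation p = 0.130, adjusted p = 0.286), falling to 0.34 without HFC 11 and HFC 14. With the kinase LCK rho was 0.44 and r 0.39, and with CORO1A rho was 0.37 and r 0.20, with adjusted permutation p-values of rho of 0.211 and 0.237. These 3 pairs did not pass the threshold, which does not show that RHOH is unrelated to them.

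With TMM scaling and all 16 libraries, no pair of SAMSN1 passed. Its highest rho was 0.57 with PTPRC (permutation p = 0.0182, adjusted p = 0.0667), where r was 0.52 (permutation p = 0.0423, adjusted p = 0.116). That pair did pass with total count scaling (rho 0.64, adjusted permutation p = 0.0405) and without LFC 2, LFC 3 or HFC 12 (rho 0.63, 0.63 and 0.64, adjusted permutation p = 0.0439, 0.0439 and 0.0491). With LCK rho was 0.51 and r 0.29, with CD2 they were 0.36 and 0.33, and with CD3E 0.27 and 0.19, at adjusted permutation p-values of rho of 0.0748, 0.211 and 0.310. With CORO1A both were below 0, at rho -0.11 and r -0.17 (adjusted permutation p of rho = 0.699). RHOH and SAMSN1 had a rho of 0.50 with each other (permutation p = 0.0295, adjusted p = 0.0748) and an r of 0.47 (permutation p = 0.0207, adjusted p = 0.0757), with rho 0.67 within LFC and 0.62 within HFC. This pair passed in 3 of the 16 fits that left out 1 library, and also when values were not centred (rho 0.90), where the LFC against HFC difference that chose both genes enters.

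**Figure D3:**
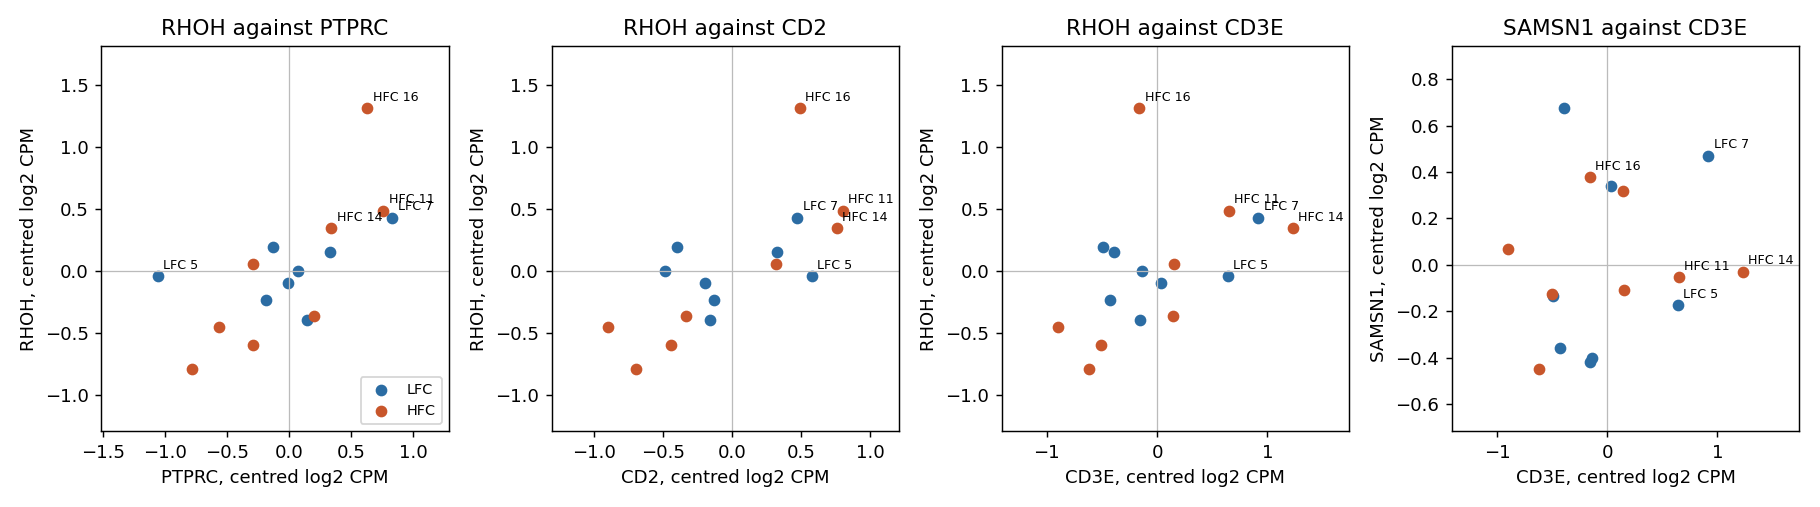
Log2 CPM of RHOH against PTPRC, CD2 and CD3E, and of SAMSN1 against CD3E, after the group means were taken out (both axes), 1 point per library, LFC in blue and HFC in orange, with the 5 libraries LFC 5, LFC 7, HFC 11, HFC 14 and HFC 16 named. For RHOH with PTPRC and with CD2 the points rise together (rho 0.73 and 0.74), whereas for SAMSN1 with CD3E (rho 0.27) they scatter, and HFC 16 lies highest for RHOH.

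The lymphocyte genes themselves did not move as 1 block. The 10 pairs among them were tested in the same way, a choice made after the data were seen, and 5 passed: CD3E with CD2 (rho 0.75), with LCK (0.68) and with CORO1A (0.69), and CD2 with LCK (0.68) and with CORO1A (0.69). The adjusted permutation p of rho was 0.0231 for each of these 5, over 16 libraries, and r ranged from 0.69 for CD2 with CORO1A to 0.85 for CD3E with LCK. PTPRC, which every nucleated white blood cell carries, passed with none over all 16 libraries, and its rho with CORO1A was 0.07. CD3E with CD2 passed in each fit that left out 1 library, with an adjusted permutation p of at most 0.043 (without HFC 14). Which of the other pairs passed turned on a few libraries. Without the 4 that stood apart, the only 2 pairs to pass were PTPRC with CD3E (rho 0.86, adjusted permutation p = 0.0227) and with CD2 (rho 0.80, adjusted permutation p = 0.0367, n = 12), and none of the 5 above did. With the first principal component regressed out, PTPRC passed with CD2 (rho 0.87, adjusted permutation p = 0.0017) and with CD3E (rho 0.74, adjusted permutation p = 0.0109), and the pairs of LCK did not pass. Without LFC 5, where PTPRC was lowest and CORO1A highest, PTPRC passed with CD3E (rho 0.76) and with CD2 (rho 0.78), both at an adjusted permutation p of 0.0352, and 3 pairs passed in all. Without HFC 11 only 2 passed, CD3E with CD2 and CD2 with CORO1A.

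**Figure D4:**
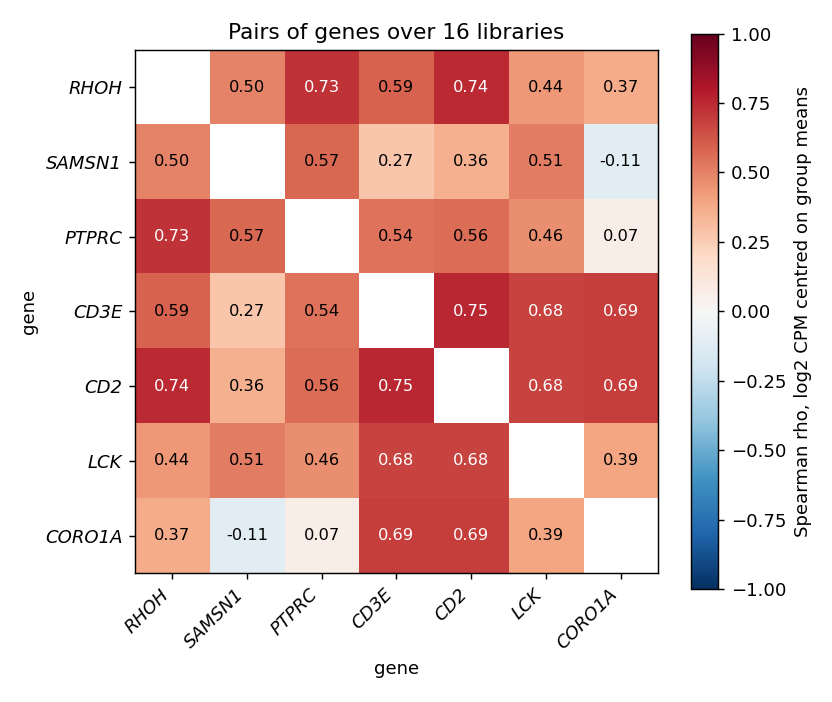
Spearman's rho of each pair of the 7 genes over 16 libraries, log2 CPM centred on the group means, with the colour scale as labelled and the value in each cell. CD3E, CD2 and LCK share high values (0.68 to 0.75), RHOH is closest to CD2 (0.74) and PTPRC (0.73), and SAMSN1 with CORO1A is below 0 (-0.11).

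All genes were ranked by likeness to the lymphocyte genes. With the mean of the 5 lymphocyte genes RHOH had a rho of 0.75, rank 247 of 14314 genes, a value that 1.76% of genes reached. SAMSN1 had a rho of 0.46, rank 1646, which 11.7% reached. With the first and second principal components regressed out the order turned, at rho 0.25 for RHOH and 0.32 for SAMSN1. These ranks are a description over 16 libraries that share depth and cell makeup. Each lymphocyte gene was ranked against the mean of the other 4 for comparison: CD2 was at rank 7 (rho 0.88), CD3E at 64 (0.85), LCK at 354 (0.72), CORO1A at 725 (0.63) and PTPRC at 1778 (0.49). The rank of RHOH fell between those of CD3E and LCK, and that of SAMSN1 was near that of PTPRC, although the means they were set against differ by 1 gene.

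Likeness to the lymphocyte genes was not separate from likeness to macrophage genes. The mean of 18 microglia and macrophage genes had a rho of 0.84 with CD2, 0.74 with CD3E, 0.66 with RHOH, 0.65 with CORO1A, 0.59 with LCK, 0.47 with PTPRC and 0.43 with SAMSN1. RHOH was at rank 844 of 14301 on that scale (6.04% of genes) and SAMSN1 at rank 2330 (16.4%). All 18 macrophage genes had a rho above 0 with RHOH (median 0.56), and the same held for 19 of 20 pan-leukocyte genes, which most white blood cells carry (median 0.62). Of the 9 other T cell genes tested, 5 had a rho above 0 with RHOH (median 0.37), as did 15 of 18 T cell receptor signalling genes (median 0.38), 9 of 9 natural killer and cytotoxic genes (median 0.45) and 4 of 9 B cell genes (median -0.01). None of the 7 hormone and endocrine genes had a rho above 0 with RHOH (median -0.55). For SAMSN1 the medians were 0.34 for pan-leukocyte, 0.32 for macrophage, 0.17 for T cell receptor signalling, 0.05 for natural killer and 0.03 for T cell genes, and over all genes the median was near 0 for either profile.

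**Figure D5:**
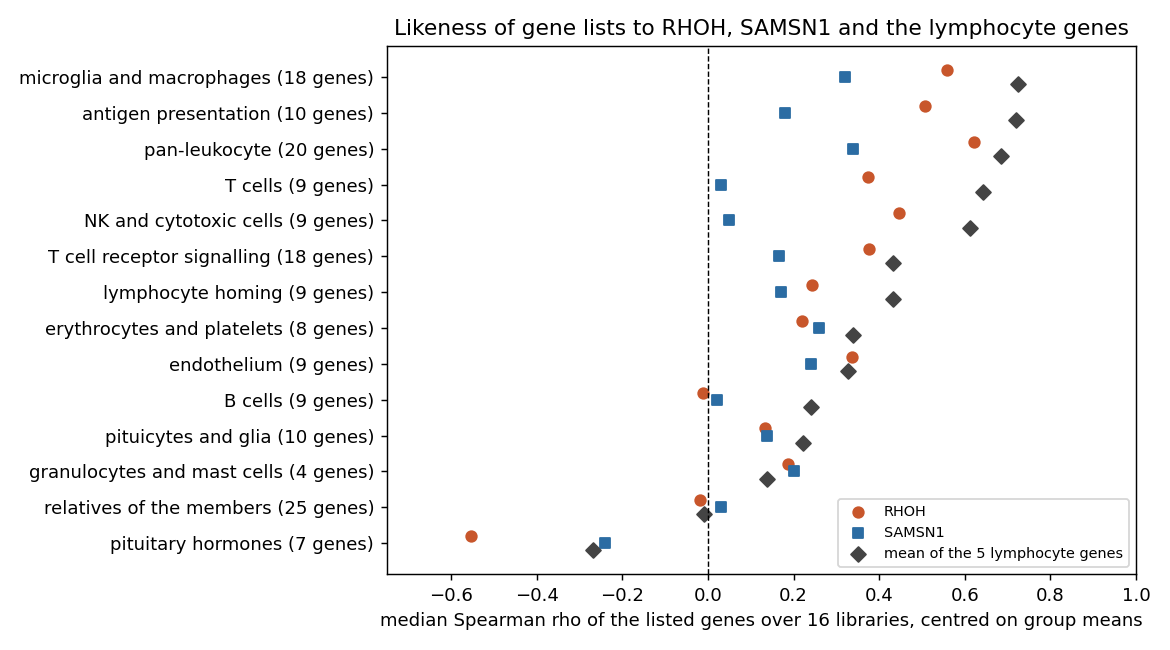
Median Spearman's rho of the genes of each list (rows, with the number of genes tested) with RHOH, SAMSN1 and the mean of the 5 lymphocyte genes (3 markers), over 16 libraries after centring on group means (horizontal axis). Pan-leukocyte and macrophage genes lie highest for RHOH (0.62 and 0.56) and for SAMSN1 (0.34 and 0.32), and hormone genes lie below 0.

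The genes whose pattern was most like that of RHOH were GRIA3, a glutamate receptor subunit (rho 0.92), YAP1, a transcriptional coactivator of the Hippo pathway (0.92), and CYP46A1, a cholesterol hydroxylase of neurons (0.91). They were followed by PIK3CG, a leukocyte phosphoinositide kinase (0.90), S1PR1, a receptor that guides lymphocytes out of tissue and is abundant on endothelium and glia (0.90), CHST2, a sulfotransferase (0.89), GIMAP8, a GTPase of immune cells (0.89), and HHIPL1 (0.89). The other 6 genes of the set were not among these 8. Those nearest to SAMSN1 included ZNF185 (0.81), the immune checkpoint receptor HAVCR2 (0.77), the glycosyltransferase MGAT3 (0.76), PLEK, a kinase substrate of platelets and leukocytes (0.75), the mitochondrial carboxylase subunit MCCC2 (0.74), MPZL1 (0.74) and ADA2, an adenosine deaminase of myeloid cells (0.72). For the mean of the lymphocyte genes all 8 lay higher, led by the leukocyte phosphatase PTPN7 (0.95), HCLS1 (0.92), the leukocyte tetraspanin CD53 (0.92) and ARHGAP30 (0.92), then CSF1, the macrophage growth factor (0.91), FGD2 (0.91), VAV1 (0.91) and the amino acid transporter SLC7A7 (0.90). These are the nearest genes with a symbol among all genes tested, so no test applies to them.

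The libraries in which RHOH was highest also stood out for other cell types. HFC 16, 11 and 14, the 3 highest for RHOH, were the 3 lowest on the second principal component. HFC 16 was lowest for the summed hormone genes, at 14220 CPM, and held the highest level of the macrophage genes P2RY12, CX3CR1, TREM2 and ITGAM among HFC libraries. LFC 5, HFC 13 and HFC 14, the 3 highest for CORO1A, were the 3 highest on the first component. LFC 5 also had the highest sum of the macrophage list, 807.5 CPM against 147 to 580.4 CPM elsewhere. C1QA, C1QB and C1QC held 157.3, 214.4 and 192.8 CPM of it. By the mean log2 CPM of that list, which the correlations used, HFC 16 was highest at 4.11. It was followed by LFC 5 at 3.96, HFC 14 at 3.95 and HFC 11 at 3.92. The part that cell makeup had in the RHOH and CORO1A values was not tested.

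The neighbouring genes were taken by list, 14 lists of 214 genes, of which 162 were tested. None was called at an adjusted p of at most 0.05 by edgeR or DESeq2. At an unadjusted p under 0.05 there were 18 (11.11%, against 5.82% of all genes), 14 higher and 4 lower in HFC. That count was 10 without HFC 16, 34 without LFC 5 and 6 without the 4 libraries that stood apart. The count over all genes was 588, 1716 and 630 in the same fits, against 834 with all 16 libraries. Without the 4 libraries the listed count fell more steeply than that of all genes. That fit also had fewer libraries, and leaving out LFC 5 alone raised both counts. What lay behind the higher share among listed genes was not tested. The median log2 fold change over all genes was -0.01.

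Among T cell genes, 9 of 22 listed were tested, with 5 above 0 and 4 below (median log2 fold change 0.17). The only one at an unadjusted p under 0.05 was the adaptor SKAP1, lower in HFC (-0.30, SE 0.13). The T cell receptor chain CD3D was at 0.46 (SE 0.31) and the cytotoxic T cell receptor CD8A at 0.45 (SE 0.29), near CD3E, while the helper cell receptor CD4 was at -0.16 (SE 0.42). The list summed to 50.8 to 88.2 CPM in LFC and 51.3 to 68.3 CPM in HFC. CD247 and SKAP1 made up most of that sum, with means of 26.6 and 18.9 CPM. Their log2 fold changes were -0.10 and -0.30, so the sum mainly reflects these genes and not CD3D or CD8A. CD28, ICOS, CTLA4 and IL7R had at most 9 counts in any library. CD3G, CD7 and CD27 were not analysed here.

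Of T cell receptor signalling genes, 18 of 20 were tested, 14 above 0 and 4 below (median 0.15). VAV1, an exchange factor of blood cells (0.50, SE 0.22), and the phosphatase PTPN6 (0.30, SE 0.13) were the 2 at an unadjusted p under 0.05. ZAP70, the kinase that RHOH helps to recruit, was at -0.30 (SE 0.24), and the scaffold LAT was at 0.09 (SE 0.21). The list summed to 230.7 to 255.6 CPM in LFC and 230.9 to 295.2 CPM in HFC.

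Natural killer and B cell genes gave little signal. Of natural killer and cytotoxic genes 9 of 17 were tested, 6 above 0 and 3 below (median 0.15), none at an unadjusted p under 0.05, and KLRD1 had no count in any library. Their sum was 19.2 to 72.2 CPM in LFC and 22.3 to 65.5 CPM in HFC. Of B cell genes 9 of 15 were tested, 5 above 0 and 4 below (median 0.01), with only the antibody joining chain JCHAIN at an unadjusted p under 0.05 (0.85, SE 0.36). The defining B cell gene MS4A1 had at most 5 counts in any library. The B cell list summed to 55.1 to 79.9 CPM in LFC and 46.7 to 97.1 CPM in HFC, and CD79B alone reached 53.8 CPM in HFC 15. For lymphocyte homing genes 9 of 14 were tested, 5 above 0 and 4 below (median 0.03), and S1PR1 (1.53, SE 0.51) was the only one at an unadjusted p under 0.05, with 195.6 CPM in HFC 16 against a group median of 23.1 CPM.

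Genes shared by most white blood cells, and those of macrophages, lay mostly above 0. Of 20 pan-leukocyte genes tested (22 listed) 19 were above 0 (median 0.32), with CD53 (0.71, SE 0.25) and LAPTM5 (0.60, SE 0.28) at an unadjusted p under 0.05. The list summed to 110.9 to 259.6 CPM in LFC and 118.9 to 308 CPM in HFC, so the groups overlapped. Of the 18 microglia and macrophage genes 15 were above 0 (median 0.39), and 4 were at an unadjusted p under 0.05. These were TREM2 (1.92, SE 0.63), P2RY12 (1.65, SE 0.46), CX3CR1 (1.51, SE 0.47) and ITGAM (0.58, SE 0.24), all highest in HFC 16, as RHOH and SAMSN1 were in their group. The list summed to 147 to 807.5 CPM in LFC and 250.9 to 580.4 CPM in HFC. Of antigen presentation genes 10 of 11 were tested, 8 above 0 (median 0.12), with the transcription factor IRF8 at 0.99 (SE 0.32) and their sum at 1468 to 4477 CPM in LFC and 1767 to 3395 CPM in HFC.

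Blood and vessel genes lay the other way. Of red cell and platelet genes 8 of 12 were tested and 7 were below 0 (median -0.26), with GP9 at -0.41 (SE 0.19) and haemoglobin HBB at -0.35 (SE 0.51). Their sum was 191 to 1334 CPM in LFC and 181.6 to 960.3 CPM in HFC and overlapped between the groups. Of endothelial genes 9 of 10 were tested, 8 below 0 and none at an unadjusted p under 0.05 (median -0.17), summing to 290.3 to 616.2 CPM in LFC and 257.1 to 474.6 CPM in HFC. Of granulocyte and mast cell genes 4 of 12 were tested, 2 in each direction (median -0.14), with HDC at -0.75 (SE 0.35) and the list at 23.8 to 79.1 CPM in LFC and 11.9 to 100.2 CPM in HFC. The part of blood content in the values of the 7 genes was not tested.

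Relatives of the 7 genes by sequence family were tested for 25 of 27, with 14 above 0 and 11 below (median 0.08). The coronins CORO6 (1.65, SE 0.55) and CORO2B (1.10, SE 0.44) were the 2 at an unadjusted p under 0.05, highest in HFC 14 and HFC 16, whereas CORO1A, the leukocyte member of that family, was at 0.01. The list summed to 659.6 to 791.8 CPM in LFC and 660.6 to 746.2 CPM in HFC. Of the hormone and endocrine genes 6 of 7 were below 0 (median -0.39), with prolactin, PRL, at -1.86 (SE 0.71). Of 10 genes of pituicytes, the glia of the posterior lobe, 7 were above 0 (median 0.24), with RAX at 3.898 (SE 1.35), and their sum was 4504 to 12030 CPM in LFC and 4122 to 11390 CPM in HFC.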

How the data were processed

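Pituitary poly(A) RNA of 16 gilts (8 LFC, 8 HFC) was sequenced as single reads without strand. The authors processed reads with FastQC and, per the submitters' processing notes, STAR and RSEM on Sscrofa11.1, and deposited a table of counts per gene, whole numbers that are not normalised. The authors also deposited a table of their own comparison (group means, fold, p-values), of which only gene symbols, positions and types were used. Symbols came from it (10091 genes) and from a name table (5454), and 10335 genes had none. POMC and 14 other listed genes were not analysed here, and some listed or similar genes are not reported here.

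Counts were scaled by TMM and tested with edgeR 4.0.16 (filterByExpr, glmQLFit, glmQLFTest, R 4.3.3), with Benjamini-Hochberg adjustment over 14319 genes, called at an adjusted p of at most 0.05 and a fold of at least 1.3. The common biological coefficient of variation was 38.6%. The study used DESeq2, run here (1.42.0) as an alternative. Correlations used log2 CPM with a prior count of 2, Python 3.11.15 and scipy 1.17.1. The scripts were tested on simulated data. Totals were 10.97 to 23.06 M counts, and counting error limits genes with few counts. Chi-square tests of the counts of 56 pairs of libraries within a group gave at least 27.1 per degree of freedom, and none was treated as a repeat deposit.

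The 7 genes and the lists were chosen with earlier results of these data known. Beyond the 7, each list was given by its counts with at most 4 genes by highest mean CPM or smallest unadjusted p, and the 8 most similar genes per profile by highest rho. CD3D, CD8A, CD4, ZAP70, LAT, MS4A1, CD79B, CD28, ICOS, CTLA4 and IL7R were named after their values were seen where they fall outside that rule.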

Additional observations from a re-analysis of the deposited data

Results flagged for a closer look

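In 14 checks, 7 genes in 2 groups of 8 libraries, 1 library lay far from the others of its group by Dixon's test at the 95% level. CORO1A in LFC 5 had a log2 CPM of 5.41, and the other 7 LFC libraries lay between 3.48 and 4.18. Chance alone gives about 1 such case in 20 groups. LFC 5 also stood apart on the first principal component and had the highest summed macrophage genes, 807.5 CPM. Their part in the CORO1A value was not tested.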

How the results depend on the processing

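No paired analysis was possible because each library is a different pig and, by the methods of the study, the pigs were unrelated. The fold changes of RHOH, SAMSN1, CD3E, CD2 and LCK stayed above 0 under every alternative run, while those of PTPRC and CORO1A fell to -0.07 and -0.11 at the lowest. DESeq2 called 20 genes where edgeR with each other setting called 0. Genes at an unadjusted p under 0.05 numbered 834, 1387 with no filter on low counts, and 588 (without HFC 16) to 1716 (without LFC 5) when 1 library was left out. Of 11 pairs with RHOH or SAMSN1, 2 passed. The count was 1 when values were not centred on the group means, which was RHOH with SAMSN1 and neither of the 2, 0 without the 4 libraries that stood apart, 0 with the first and second principal components regressed out (added after the data were seen), and 0 to 4 when 1 library was left out. It was 0 without LFC 1, LFC 7, HFC 10, HFC 11, HFC 13, HFC 14, HFC 15 or HFC 16, 1 without HFC 9, and 4 without LFC 8 or HFC 12. Of 10 pairs among the lymphocyte genes 5 passed, 2 others without the 4 libraries (both with PTPRC), and 2 to 5 when 1 was left out. The rho of RHOH with the mean of the lymphocyte genes, 0.747, was 0.541 with total count scaling, 0.429 not centred and 0.253 with both components regressed out, below the 0.315 of SAMSN1. With the macrophage mean it was 0.659, against 0.429 with total count scaling, 0.206 with both components out, and 0.607 to 0.796 when 1 library was left out. For SAMSN1 with the macrophage mean, 0.432, it was 0.679 with the first and 0.653 with both components out. SAMSN1 with CORO1A turned to 0.188 with the first component out. The cause of these shifts was not tested. Genes with 12 to 74 counts per library, such as SAMSN1, CD3E and LCK, are limited by counting error.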
